A study of Mus musculus with 24 samples.

Results

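The 1095 olfactory receptor genes (symbols starting with Olfr and a number) of the mouse kidney and liver XR-seq tables were examined as a large gene family known for silence outside the nose. They are the entries with 1 symbol of that form, 1109 of the 25239 entries of the tables, less 14 that overlap another kind of gene on the opposite strand. The 1095 entries cover 1593.546 kb on 17 chromosomes, with a median length of 945 bases (897 to 25883), and 287 of them lie on chromosome 2, 235 on chromosome 7 and 134 on chromosome 9. Entries separated by gaps of at most 1 Mb form 48 clusters. Because most members hold only a few reads, reads were summed over members within each library.

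In XR-seq, the DNA fragments released by excision repair are captured and sequenced, so that each read stands for a lesion that was being removed. The series holds 12 kidney and 12 liver libraries of wild-type C57BL/6J female mice, aged 6 months and on a cycle of 12 h light to 12 h dark, with 2 replicates at each of zeitgeber times (ZT) 0, 4, 8, 12, 16 and 20 h. All animals received cisplatin by intraperitoneal injection at 10 mg/kg, 2 h before the tissues were taken, so the series has no group without cisplatin. The labels do not say whether replicates or tissues share an animal, so that a p-value here weighs only library-to-library spread, which may be technical. The library totals, recovered from the deposited values, were 8718055 to 33716763 reads in kidney and 12917058 to 28244795 in liver. Olfactory receptor genes held 263 to 1189 reads of the transcribed strand (TS) in a kidney library and 565 to 1413 in a liver library. Together with the reads of the non-transcribed strand (NTS), they took 0.0062% of the library on average in kidney and 0.0065% in liver.

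Olfactory receptors are G protein-coupled receptors that bind odorants. Each mature olfactory sensory neuron transcribes 1 allele of 1 receptor gene, and the other receptor genes, in that neuron as in other cell types, are held in compact chromatin. Excision repair of cisplatin adducts has a global branch, which surveys both strands, and a transcription-coupled branch, which acts on the strand that RNA polymerase reads. A TS excess is therefore the usual mark of transcription in XR-seq, and similar counts on both strands are the usual pattern of untranscribed DNA. The adducts, which form mainly at neighbouring guanines, were not measured here.

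The windows at the annotated start of 5 genes named below are shown for the contrasts they carry. Olfr1032 and Olfr1034 flank the long gene Olfr1033 in the stretch with most liver reads, Olfr1393 and Olfr267 had the highest kidney TS levels of all members, and Olfr692 the highest kidney NTS level. Each window runs from 250 bases before to 50 after the gene start in RefSeq (GRCm38.p6), 5′ to 3′ on the coding strand, at chr2:86007528-86007827 (+), chr2:86046194-86046493 (+), chr11:49279900-49280199 (+), chr4:58785671-58785970 (−) and chr7:105368078-105368377 (+). Capitals mark each run of C, which is a run of adjacent guanines on the template strand.
Olfr1032: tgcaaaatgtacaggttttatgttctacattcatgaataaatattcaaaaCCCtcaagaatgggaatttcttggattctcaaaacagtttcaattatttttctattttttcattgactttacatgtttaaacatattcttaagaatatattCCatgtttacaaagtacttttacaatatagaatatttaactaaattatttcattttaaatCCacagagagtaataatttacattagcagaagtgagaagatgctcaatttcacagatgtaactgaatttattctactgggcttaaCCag
Olfr1034: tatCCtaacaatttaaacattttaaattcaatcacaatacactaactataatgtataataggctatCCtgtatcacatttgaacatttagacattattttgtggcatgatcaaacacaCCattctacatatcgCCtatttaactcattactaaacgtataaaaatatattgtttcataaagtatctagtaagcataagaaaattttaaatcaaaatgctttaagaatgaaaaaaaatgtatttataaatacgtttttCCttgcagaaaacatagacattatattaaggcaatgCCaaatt
Olfr1393: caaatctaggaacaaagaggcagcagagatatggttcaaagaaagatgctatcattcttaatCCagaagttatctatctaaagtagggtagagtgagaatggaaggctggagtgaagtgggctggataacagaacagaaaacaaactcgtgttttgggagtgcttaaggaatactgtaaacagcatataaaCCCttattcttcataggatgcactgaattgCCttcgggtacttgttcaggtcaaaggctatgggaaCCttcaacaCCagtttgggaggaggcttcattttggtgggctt
Olfr267: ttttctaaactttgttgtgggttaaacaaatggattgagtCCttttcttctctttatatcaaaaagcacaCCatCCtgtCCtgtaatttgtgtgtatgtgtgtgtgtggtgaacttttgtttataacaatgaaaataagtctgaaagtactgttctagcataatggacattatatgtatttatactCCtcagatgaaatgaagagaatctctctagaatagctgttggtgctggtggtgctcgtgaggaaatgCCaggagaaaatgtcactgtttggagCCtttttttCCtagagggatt
Olfr692: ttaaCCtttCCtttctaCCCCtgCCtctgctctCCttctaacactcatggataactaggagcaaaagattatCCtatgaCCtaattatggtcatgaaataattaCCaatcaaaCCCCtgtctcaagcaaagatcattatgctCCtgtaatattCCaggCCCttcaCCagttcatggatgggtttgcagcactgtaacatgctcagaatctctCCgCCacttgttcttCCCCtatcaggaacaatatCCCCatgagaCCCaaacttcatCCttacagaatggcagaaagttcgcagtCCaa

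These windows hold 5, 6, 6, 8 and 30 CC dinucleotides in the order given, against 6, 3, 28, 13 and 9 GG dinucleotides. RefSeq windows were found for 914 member symbols (918 windows). Their median GC content was 35.0%, against 53.3% in the 31903 windows of other genes, and the median window held 1 CG dinucleotide, against 8. The median number of CC dinucleotides was 10 in members and 23 in other genes, and that of GG was 10 and 24. With both strands searched, the TATA box letters TATAAA occurred in 41.4% of member windows and 12.8% of other windows, and the homeodomain core TAATTA in 18.5% and 4.90%. These are descriptions of letters and not of bound sites. In the windows of Olfr1032, Olfr1393, Olfr267 and Olfr692 the gene start is an ATG, and 915 of the 1095 entries have a length divisible by 3. Many member starts may therefore be start codons rather than transcript starts, so the windows need not be promoters. Member and other windows may thus be placed differently on their genes, which was not tested.

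The tissues matched their labels by their marker genes, and the olfactory neuron markers had no common direction between tissues. All 8 kidney epithelial markers were higher in kidney than in liver (median log2 difference 4.14) and all 8 hepatocyte markers were lower (median −2.19). Of 7 olfactory sensory neuron markers, 5 were tested between the tissues, of which Stoml3 was higher in kidney and Ano2 lower. Their summed TS level ranged from 1.52 to 2.28 RPKM over kidney libraries and from 1.52 to 2.70 over liver libraries. Most of it was Omp (1.30 ± 0.24 RPKM in kidney and 1.51 ± 0.33 in liver, SD, n = 12 each), which lies inside Capn5 on the same strand, so its reads cannot be assigned to it. Cnga2, the channel subunit of odour transduction, had 0.0178 and 0.0192 RPKM, and no marker was at 0 in all libraries of a tissue. RPKM here is reads per kb of gene scaled to the library total, for the strand named.

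Repair of the olfactory receptor genes was sparse on both strands in kidney and liver, and the TS excess was slight in kidney. The pooled kidney TS density was 0.0211 ± 0.0031 RPKM (SD, n = 12), with the lowest library at 0.0153, the median at 0.0213 and the highest at 0.0261. The kidney NTS density was 0.0178 ± 0.0025 RPKM, with 0.0135, 0.0175 and 0.0222. The liver TS density was 0.0284 ± 0.0023 RPKM (0.0246, 0.0286 and 0.0324) and the liver NTS density 0.0126 ± 0.0024 (0.0101, 0.0118 and 0.0181). TS exceeded NTS in 12 of 12 libraries of each tissue, and in liver the lowest TS value lay above the highest NTS value, while in kidney the strands overlapped. The log2 ratio of TS to NTS was 0.24 ± 0.10 in kidney and 1.19 ± 0.23 in liver (SD, n = 12 each, exact sign-flip permutation test, 2-sided, p = 0.000488, the smallest it can give). In bulk tissue, frequent repair in few cells and rare repair in many cannot be told apart.

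**Figure D1:**
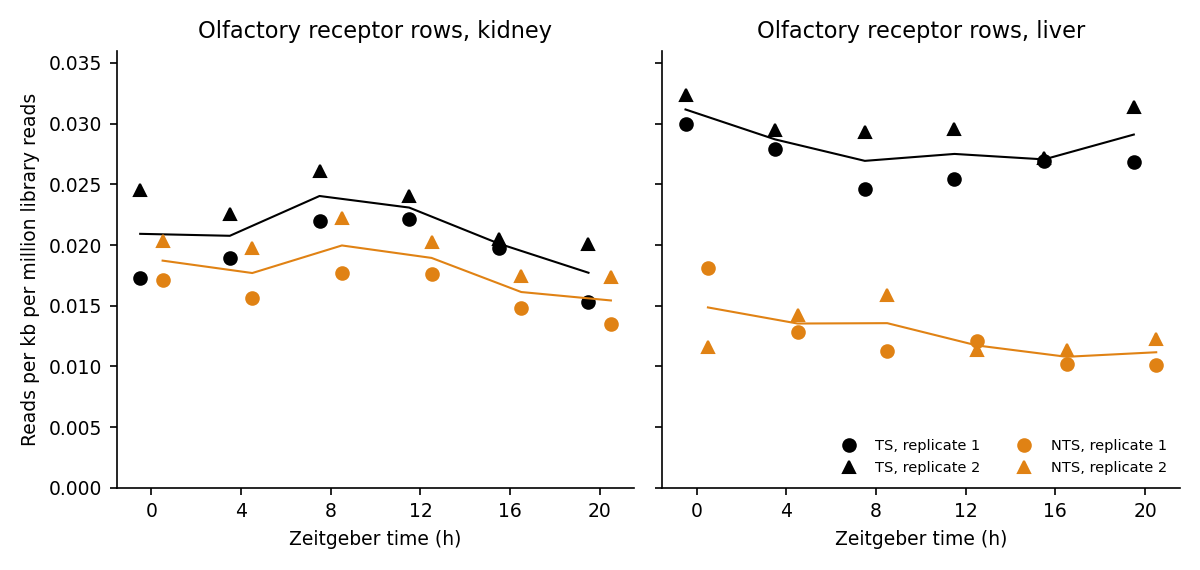
Pooled TS (black) and NTS (orange) density of the olfactory receptor genes, in RPKM, by zeitgeber time in kidney (left) and liver (right). Circles are replicate 1, triangles replicate 2 and lines the mean at each time; kidney TS lies slightly above NTS, and liver TS lies above NTS in all 12 libraries.

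The liver TS excess rested largely on 1 gene. Olfr1033 held 36.9% of all liver TS reads of the family, against 6.17% of the kidney reads, and the 10 genes with most TS reads held 57.0% in liver and 30.7% in kidney. The other members were thinly covered: the median gene had 3 TS and 2 NTS reads over the 12 kidney libraries together and 2 of each over the 12 liver libraries, and 990 genes (90.4%) in kidney and 1018 (93.0%) in liver had at most 10 TS reads. In kidney TS reads outnumbered NTS reads in 576 genes, fell short in 355 and were equal in 164. In liver these numbers were 496, 340 and 259. No read on either strand was listed for 29 genes in kidney and 77 in liver. How reads that match several near-identical receptor genes were placed is not given in the sources used here, so single members with close copies are uncertain. Its effect on the pooled densities of the family was not tested.

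Set against the 20507 other genes retained, the family was low on both strands and had a smaller strand difference. The other genes averaged 0.704 TS and 0.0954 NTS RPKM in kidney and 0.726 and 0.0836 in liver. The olfactory receptor TS density was lower by a log2 difference of −5.08 in kidney and −4.68 in liver, and the NTS density by −2.43 and −2.75. The log2 strand ratio was lower by −2.65 in kidney and −1.93 in liver, where the other genes stood at 2.89 and 3.12. Each of these differences had the same sign in 12 of 12 libraries (exact sign-flip permutation test, adjusted p = 0.000488 for each).

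Other chemosensory receptor families served as the nearest comparison. The 312 vomeronasal receptor genes, which detect pheromones, had 0.0179 TS and 0.0111 NTS RPKM in kidney and 0.0176 and 0.0106 in liver. In kidney, the olfactory receptor genes had a log2 TS density 0.22 higher (10 of 12 libraries, adjusted p = 0.0146) and a log2 NTS density 0.67 higher (12 of 12, adjusted p = 0.000732), so their log2 strand ratio was lower, by −0.45. In liver the TS density was 0.70 higher, the NTS density 0.25 higher and the log2 ratio 0.44 higher (12 of 12 each, adjusted p = 0.000732). Without Olfr1033 the TS difference was 0.15 in kidney and 0.05 in liver, neither past the threshold of 0.05, and the liver ratio turned to −0.15 (adjusted p = 0.0082). The 35 bitter taste receptor genes (Tas2r) held only 2 to 16 NTS reads in a kidney library and 0 to 11 in a liver library. Because 1 liver library had none, 0.5 reads were added to each of their summed counts. Against them, the olfactory receptor TS density was lower (−1.96 in kidney, −0.83 in liver), the NTS density higher (0.55 and 0.84) and the strand ratio lower (−2.51 and −1.67). The adjusted p was 0.00426 or less for each (exact sign-flip permutation test). With the 14 overlapping entries kept, the liver TS difference was −0.15 (adjusted p = 0.218).

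Kidney intergenic DNA gave the background of the same libraries, from the tables that the authors had drawn down to 8700000 or 20000000 reads, which hold 1082 of the members. Each region is listed on 2 lines, taken here as its strands, and densities are per strand. The 668 regions over 500 kb had 0.0173 ± 0.00077 RPKM (SD, n = 12), and the 956 regions with an olfactory receptor gene on both sides had 0.0172. Olfactory receptor TS density lay above the long regions by 0.28 on the log2 scale (10 of 12 libraries, exact sign-flip permutation test, adjusted p = 0.00391), and NTS density differed by 0.05 (7 of 12, p = 0.377). The choice of members and regions turned these signs. The 603 members over 100 kb from any other gene had 0.0125 TS and 0.00785 NTS RPKM, below the long regions by log2 differences of −0.48 and −1.16, and below the regions between olfactory receptor genes by −0.47 and −1.15 (0 of 12 libraries higher, adjusted p = 0.000488). Against all 15797 intergenic regions the differences were −1.18 and −1.41.

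Members near other genes were repaired at a higher density than members deep inside the clusters, on both strands. The 122 genes within 20 kb of another kind of gene had 0.0530 TS and 0.0512 NTS RPKM in kidney and 0.0452 and 0.0281 in liver. The 605 genes over 100 kb away had 0.0124 and 0.0077 in kidney and 0.0308 and 0.0081 in liver, and the 368 in between had 0.0226 and 0.0209 in kidney and 0.0184 and 0.0137 in liver. Near minus far, the log2 NTS density differed by 2.74 in kidney and 1.79 in liver, and the TS density by 2.10 and 0.54 (12 of 12 libraries each, exact sign-flip permutation test, adjusted p = 0.000488). The log2 strand ratio was lower near other genes, by −0.64 in kidney and −1.25 in liver. The liver value rested on Olfr1033, a far member: without it the difference was 0.021 (adjusted p = 0.715) and that of TS density 1.99 (adjusted p = 0.000488). Without all 7 genes from Olfr1029 to Olfr1036, near minus far was 2.41 for TS and 2.83 for NTS density in kidney and 2.51 and 1.99 in liver, and the ratio was −0.42 in kidney and 0.51 in liver (no test).

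The strand that carried the reads differed between near members behind a gene on their own strand and near members facing a convergent gene. This split was chosen after the first position result was seen. Behind a gene on their own strand (17 members), reads lay mainly on the TS: 989 TS and 147 NTS reads in kidney, and 1070 and 123 in liver. The mean log2 ratio was 2.70 ± 0.36 in kidney and 3.09 ± 0.29 in liver (SD, n = 12 each). Facing a convergent gene on the opposite strand (40 members), reads lay mainly on the NTS, with 698 TS and 1348 NTS in kidney and 417 and 876 in liver, and ratios of −0.96 ± 0.22 and −1.11 ± 0.35. The difference between these orientations was 3.66 ± 0.46 in kidney and 4.20 ± 0.42 in liver (12 of 12 libraries, exact sign-flip permutation test, adjusted p = 0.000698). A few genes held many of the TS reads: Olfr18, Olfr1393 and Olfr267, each within 20 kb after a gene on its strand, have their counts below. The split was not repeated without them, and its p weighs libraries and not members. The 33 members whose nearest gene begins downstream on the same strand had −0.04 in kidney and 1.43 in liver, and the 24 with a divergent neighbour had 0.47 and 0.00. The 8 members that overlap another gene on the same strand had 26 TS and 141 NTS reads in kidney and 20 and 46 in liver, and Olfr461 held 117 of those kidney NTS reads and 26 of the liver ones.

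**Figure D2:**
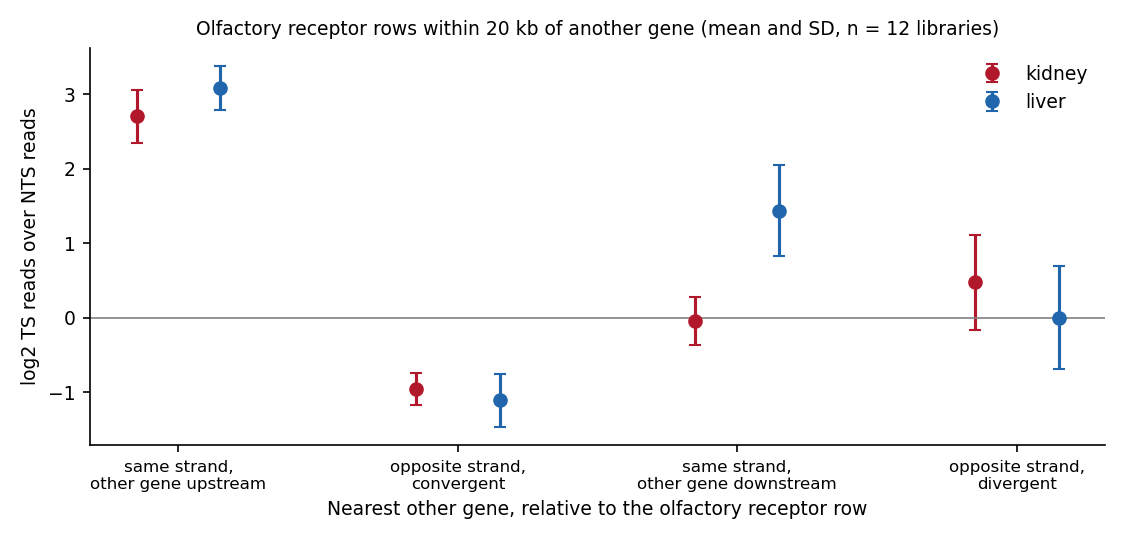
Mean log2 ratio of TS to NTS reads (points) with SD over 12 libraries (bars) for olfactory receptor genes within 20 kb of another gene, grouped by the position and strand of that gene, in kidney (red) and liver (blue). The pooled ratio of members behind a gene on their strand lies near 3, and that of members facing a convergent gene near −1, in both tissues.

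On chromosome 11, 3 named members follow Mgat1, a glycosyltransferase gene whose own TS level was 3.46 RPKM in kidney and 3.05 in liver. Olfr1393, a receptor with a described role in renal glucose handling, begins 17.1 kb after the end of Mgat1 on the same strand (chr11:49280150-49281085, mm10). It had 232 TS and 6 NTS reads in kidney and 187 and 1 in liver. Its kidney TS level was 0.991 ± 0.209 RPKM (lowest 0.632, median 1.02, highest 1.31) and its liver TS level 0.775 ± 0.287 (0.331, 0.751 and 1.46), so the tissues overlapped. Olfr1392, 30.3 kb after Mgat1, had 0.677 RPKM in kidney and 0.429 in liver, and Olfr10, 54.5 kb after it, had 0.499 and 0.312. In each tissue the mean level was lower the farther the gene lay from Mgat1, with no test over 3 genes and with overlapping libraries. By edgeR, TS exceeded NTS in kidney by 4.96 ± 0.33 (log2 ± SE) for Olfr1393 and 4.70 ± 0.35 for Olfr1392. Both passed the filter on low counts only through their TS reads, so no p is given. The cluster that holds these genes, 18 members at chr11:49112777-49564858, had the highest TS plus NTS density of all clusters of at least 10 members in both tissues, at 0.168 TS and 0.0419 NTS RPKM in kidney and 0.112 and 0.0334 in liver.

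Olfr267 on chromosome 4 (chr4:58784779-58785720, mm10) showed the same arrangement, 14.3 kb after AI314180 (1.18 RPKM in kidney and 1.33 in liver on the TS). It had 214 TS and 6 NTS reads in kidney and 306 and 2 in liver, at 0.908 ± 0.278 RPKM in kidney (0.561, 0.787 and 1.48) and 1.26 ± 0.289 in liver (0.904, 1.21 and 1.67). The 25 members on chromosome 4 together had 535 TS and 343 NTS reads in kidney and 450 and 125 in liver. Olfr18, 9.04 kb after the zinc finger gene Zfp560 on chromosome 9, had 328 TS and 63 NTS reads in kidney and 184 and 67 in liver (log2 2.35 ± 0.17 and 1.44 ± 0.21, SE, edgeR). Olfr1443 (chr19:12678166-12683845), 26.4 kb after the glycine acyltransferase gene Glyat, had 462 and 108 reads in kidney and 511 and 30 in liver (log2 2.09 ± 0.17 and 4.02 ± 0.20). TS reads outnumbered NTS reads for all 3 genes in 12 of 12 libraries of each tissue. Their NTS reads were few, so the filter on low counts was passed mainly through the TS and no p is given.

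Members with mainly NTS reads stood opposite convergent genes and in other positions. Olfr692 (chr7:105368328-105369317), 1.89 kb from the end of Fam160a2, had 9 TS and 168 NTS reads in kidney and 4 and 72 in liver, with an NTS level of 0.692 ± 0.195 RPKM in kidney and 0.286 ± 0.147 in liver. The pseudogene Olfr856-ps1, 7.31 kb from the end of Zfp317, had 10 and 185 reads in kidney (log2 −4.02 ± 0.31, SE, edgeR) and 6 and 177 in liver. Olfr212 (chr6:116506516-116517965) had 64 TS and 205 NTS reads in kidney and 74 and 169 in liver (log2 −1.66 ± 0.15 and −1.17 ± 0.19). Its nearest other gene is Alox5, 45.3 kb away. In kidney, Olfr1357, 19.7 kb from Syde1 downstream on the same strand, had 34 TS and 227 NTS reads (log2 −2.69 ± 0.20), against 33 and 22 in liver. Olfr856-ps1, Olfr212 and Olfr1357 passed the filter on low counts mainly through the NTS, so no p is given for them. Olfr287, 34.9 kb from H1fnt on the same strand, had 229 and 331 reads in kidney (log2 −0.53 ± 0.11, edgeR, adjusted p = 6.43e-05), against 53 and 44 in liver.

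Single genes could be tested only where reads sufficed. In the fit over all entries, 11 members passed the filter on low counts in kidney, of which 6 were called with more TS reads and 4 with more NTS reads. Over all 18973 entries tested, 92.0% were called, 81.5% towards the TS and 10.5% towards the NTS. In liver 7 members passed, with 6 towards the TS and 1 towards the NTS, beside 91.7% of 18380 entries (80.9% and 10.8%). With a minimum of 10 reads in all, 280 members were tested in kidney, of which 35 were called towards the TS and 38 towards the NTS, against 71.7% and 10.6% (together 82.3%) of 23206 entries. In liver 194 were tested, with 33 and 28 calls, against 70.3% and 11.1% (together 81.4%) of 22900. A member that passed only through 1 strand had to differ, so these counts describe the genes that could be tested and not the family.

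The member with most liver TS reads, Olfr1033, lay in a stretch on chromosome 2, far from other genes. Olfr1033 (chr2:86020640-86044808, mm10, + strand) is one of the longest members, at 24169 bases. In liver it had 4256 TS and 238 NTS reads, a TS level of 0.686 ± 0.0899 RPKM (lowest 0.551, median 0.709, highest 0.790) and an NTS level of 0.0386. In kidney it had 514 and 129 reads, a TS level of 0.0857 ± 0.0196 (0.0542, 0.0895 and 0.117) and an NTS level of 0.0227. The lowest liver library lay above the highest kidney library. TS exceeded NTS by a log2 value of 1.97 ± 0.15 in kidney and 4.15 ± 0.087 in liver (SE, edgeR, adjusted p = 2.74e-24 in liver). With few NTS reads in kidney, the filter on low counts there may have been passed only through the TS, so no kidney p is given. The TS level was lower in kidney than in liver by −3.02 ± 0.10 (edgeR, adjusted p = 6.13e-15).

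The 6 neighbours of Olfr1033 on the same strand also had fewer TS reads in kidney than in liver. They were grouped after their values were seen, and no test of the group is given. Over the 7 genes, 271 to 370 kb from the nearest other gene, the summed TS level was 0.0666 RPKM in kidney (568 TS and 139 NTS reads) and 0.559 in liver (4976 and 282). Olfr1034, 3′ of Olfr1033, had 8 TS and 0 NTS reads in kidney and 162 and 10 in liver (tissue difference −4.95 ± 0.34, log2, SE). Olfr1030 had 21 and 5 reads in kidney and 240 and 16 in liver (−3.52 ± 0.26), and Olfr1036 had 10 and 1 in kidney and 99 and 1 in liver (−3.72 ± 0.40). These 3 genes passed the filter on low counts only through liver, so no p is given. Olfr1029 had 3 TS reads in kidney and 88 in liver, Olfr1031 had 8 and 57, and Olfr1032 had 4 and 74. Without the 7 genes, the far members had 0.0101 TS and 0.0073 NTS RPKM in kidney and 0.0081 and 0.0071 in liver, log2 ratios of 0.47 ± 0.18 and 0.18 (no test, since the genes were chosen by their values).

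**Figure D3:**
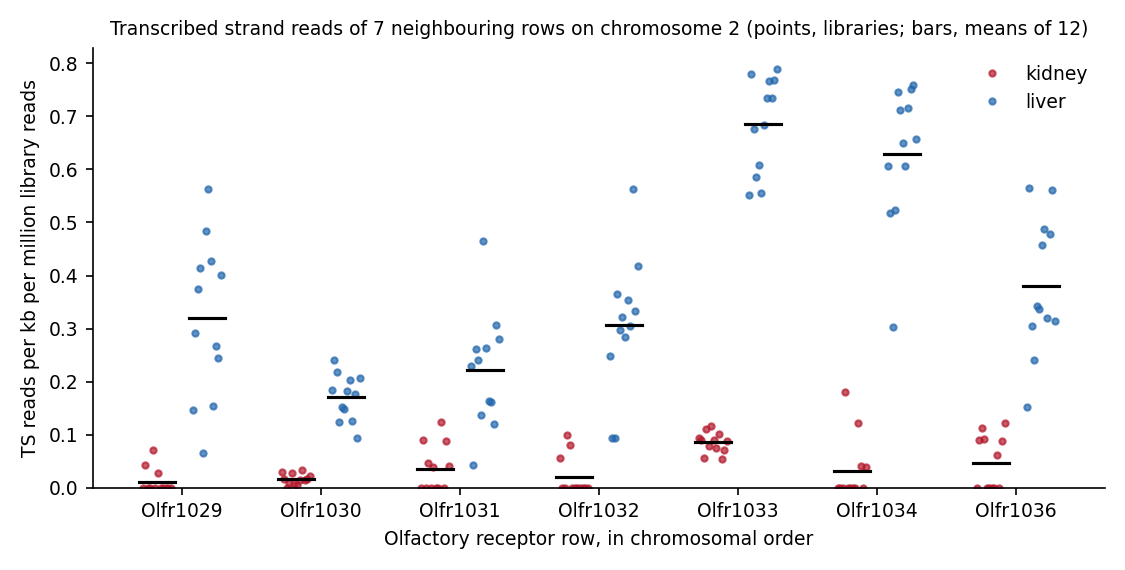
TS level in RPKM of Olfr1029 to Olfr1036 in 12 kidney (red) and 12 liver (blue) libraries, with black bars at the means. Kidney libraries lie near 0 except at Olfr1033 (mean 0.0857), and liver means run from 0.171 at Olfr1030 to 0.686 at Olfr1033.

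By chromosome, the strand ratio of the pooled members differed in sign. In a fit of all other entries with 1 summed entry per chromosome, TS exceeded NTS in kidney on 6 of the 13 chromosomes tested and NTS exceeded TS on 3, and 92.0% of all entries in that fit were called. Chromosome 2 had the highest kidney ratio (log2 0.86 ± 0.08, SE) and chromosome 6 the lowest (−1.41 ± 0.12). In liver 7 of 12 chromosomes were called towards the TS and chromosomes 6 and 7 (−0.50 ± 0.08) towards the NTS, beside 91.7% of all entries. The highest liver ratios were those of chromosome 2 (2.77 ± 0.09), chromosome 19 (2.28 ± 0.14) and chromosome 10 (2.06 ± 0.13). Few genes carried those of chromosomes 2 and 10, and Olfr1443 carried part of that of chromosome 19. Without Olfr1029 to Olfr1036, chromosome 2 had 721 TS and 572 NTS reads in kidney and 566 and 523 in liver, log2 ratios of 0.33 and 0.11. Without Olfr1443, chromosome 19 had ratios of −0.069 in kidney and 1.12 in liver, and without Olfr9, Olfr763 and Olfr1357, chromosome 10 had 0.28 and 0.15 (ratios of summed reads, genes chosen by their values, no test). In TS plus NTS density, chromosome 4 was highest in both tissues, at 0.0733 TS and 0.0477 NTS RPKM in kidney and 0.0581 and 0.0175 in liver. Olfr267 held many of the chromosome 4 TS reads, and the density and ratio of that chromosome were not repeated without it. These ratios are on the scale of library totals. Scaled so that the typical gene has equal strands, all 13 chromosomes were called towards the NTS in kidney, beside 8774 of 18974 entries. In liver 10 of 12 were, beside 8250 of 18384 entries.

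**Figure D4:**
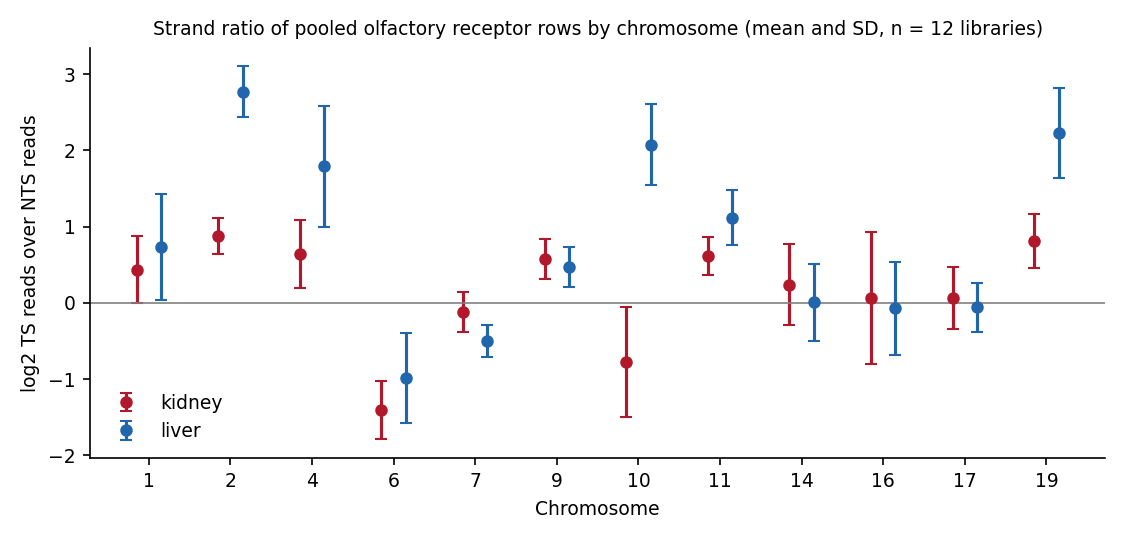
Mean log2 ratio of TS to NTS reads of pooled olfactory receptor genes (points) with SD over 12 libraries (bars) on the 12 chromosomes compared between tissues, kidney red and liver blue. Chromosomes 2, 4, 10 and 19 stand higher in liver, and chromosome 6 lies below 0 in both tissues.

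Between the tissues, the pooled TS density was lower in kidney than in liver by −0.44 on the log2 scale (permutation test with 100000 resamples, adjusted p = 3e-05), the NTS density was higher in kidney by 0.51 (adjusted p = 8e-05), and the log2 ratio was lower by −0.95 (adjusted p = 3e-05). The TS difference was that of Olfr1033: without it the kidney density was higher by 0.14, which did not pass (adjusted p = 0.136), the ratio difference was −0.41 (0.18 in kidney and 0.59 in liver, adjusted p = 6e-05), and the median over chromosomes with at least 20 members differed by −0.05 (adjusted p = 0.679). The NTS difference was 0.08 with the 14 overlapping entries kept (adjusted p = 0.224) and −0.07 over the far members alone (adjusted p = 0.497). Per chromosome, edgeR called the TS level in 10 of 13, beside 73.9% of all entries: 8 were higher in kidney (42.2% of all entries were), with chromosome 15 at 1.56, and chromosomes 2 (−2.09) and 10 (−1.35) were lower. DESeq2 called 3 higher and 2 lower, beside 7291 and 7241 of 20301 entries. Leaving out 1 library gave 5 to 9 higher, with 5 without kidney ZT0 replicate 2 or ZT4 replicate 2 (shares of all entries not given). On the NTS 8 of 14 were called, beside 66.0%, with 6 higher in kidney (33.9% of all entries were) and chromosomes 2 (−0.46) and 7 (−0.33) lower (32.2%).

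Of 24 single members that passed the filter for TS level between tissues, 8 were called higher in kidney and 10 lower, beside 42.2% and 31.7% of the 20306 entries tested. In the lower tissue alone, 6 of these 8 and 8 of these 10 did not pass the filter, so their difference was partly fixed by selection and no p is given for them. With a minimum of 10 reads in all, 22 of 256 members were higher in kidney and 15 lower, beside 38.6% and 28.3% of entries. Outside the chromosome 2 stretch, Olfr9 on chromosome 10 (chr10:128989914-128990852), 31.6 kb after the integrin gene Itga7, had 23 TS reads in kidney and 317 in liver (log2 −3.73 ± 0.26, SE), and Olfr763, 53.0 kb after Itga7, had 25 and 209 (−3.04 ± 0.27). Itga7 itself, which overlaps an opposite-strand gene, was lower in kidney by −0.41. Among the members higher in kidney were Olfr287 on chromosome 15 (229 TS reads in kidney and 53 in liver, 2.19 ± 0.17), whose nearest gene H1fnt had 85 and 5, and Olfr70 on chromosome 4 (151 and 55 reads, 1.47 ± 0.29). Olfr18, Olfr1392 and Olfr288 were higher in kidney by 0.77, 0.78 and 0.80, and Olfr267 was lower by −0.57.

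Time of day left no pooled measure past the threshold. A 24 h cosine fitted to the log2 values had an amplitude of 0.19 for kidney TS density with a peak at 8.7 h, 0.15 for kidney NTS density at 7.2 h, 0.09 for liver TS density at 23.7 h and 0.20 for liver NTS density at 3.8 h (permutation test with 100000 resamples over 6 tests, adjusted p = 0.202 for each, also for the ratios). The kidney TS means ranged from 0.0177 RPKM at ZT20 to 0.0240 at ZT8 and the liver TS means from 0.0269 at ZT8 to 0.0312 at ZT0, with SDs between replicates of up to 0.00515 in kidney and 0.00331 in liver. Another choice of entries or of scale gave a call in liver TS density: with the 14 overlapping entries kept the amplitude was 0.15 (adjusted p = 0.006), and scaled to the NTS reads of other genes it was 0.16 (adjusted p = 0.0009).

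Among single members, 1 of 14 tested in kidney and 3 of 18 in liver had a called rhythm, beside 14.9% of 19876 and 16.6% of 19236 entries. Olfr20 on chromosome 11 was the largest in liver, with a log2 amplitude of 1.13 and a peak at 22.0 h (edgeR, adjusted p = 0.0054). It begins 4.81 kb after Spata22, a meiosis gene, which had a liver amplitude of 0.90 (adjusted p = 0.000579). Both had fewer TS reads in kidney: Olfr20 had 26 TS reads in kidney and 196 in liver (log2 −2.70 ± 0.32), and Spata22 had 223 and 1704 (log2 −2.74). Olfr1392 (amplitude 0.98, peak at 6.3 h, edgeR, adjusted p = 0.0493) and Olfr872 (0.66, peak at 19.8 h, adjusted p = 0.0371) were the other liver calls. Olfr267 was the kidney call (0.52, peak at 16.3 h, adjusted p = 0.042). Their neighbours were also called: Mgat1 before Olfr1392 had a liver amplitude of 0.14 (adjusted p = 0.00609), Zfp560, 84.2 kb from Olfr872 on the opposite strand, 0.26 (adjusted p = 0.00746), and AI314180 before Olfr267 a kidney amplitude of 0.12 (adjusted p = 0.0289). Whether members and neighbours peak together was not tested. These 3 members stood close to the threshold, and leaving out 1 library gave 0 or 1 calls in kidney and 1 to 4 in liver. Pooled by chromosome, no TS call was made in kidney and 1 in liver (chromosome 2, amplitude 0.18, edgeR, adjusted p = 0.0347), beside 14.9% of entries in kidney and 16.6% in liver. None was made on the NTS, beside 2.11% of entries in kidney and 3.69% in liver.

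Receptors with described roles outside the nose mostly had few reads. Olfr78, which senses short-chain fatty acids and is expressed in the renin-producing cells of the kidney, had 88 TS and 64 NTS reads in kidney, at 0.0187 ± 0.0077 TS RPKM, and 47 and 50 in liver, at 0.0099 ± 0.0047. Its kidney minus liver value was 0.93 ± 0.28 (log2, SE), with the filter not passed in liver alone. Its neighbour Olfr558 had 71 and 34 reads in kidney and 38 and 34 in liver, a value of 1.02 ± 0.40 under the same limit. Olfr691 had 46 TS reads in kidney and 2 in liver, and Olfr16, known from sperm, had 0 and 45; neither passed the filter. Olfr544, described in fat and liver metabolism, had 40 TS and 117 NTS reads in kidney and 38 and 100 in liver, and lies 14.3 kb from the convergent gene Rrm1. Olfr1373 had 8 and 96 reads in kidney and 7 and 23 in liver, Olfr90 had 19 and 16 in kidney and 38 and 16 in liver, and Olfr734 had at most 3 on a strand. Olfr56 was not retained, as its entry of 84655 bases overlaps other genes on the opposite strand.

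The genes that carry the odour signal were set beside the receptors. Of 14 transduction genes, 9 were tested between strands in kidney, of which 6 had more TS reads and none fewer, and 9 in liver, of which 5 had more and 2 fewer (Cngb1, and Adcy3, which overlaps an opposite-strand gene). Most TS reads fell on members with wide expression: Gnb1, a G protein beta subunit, had 1.91 RPKM in kidney and 1.83 in liver, and Ric8b, a G protein chaperone, had 1.65 and 1.92. The chaperones that bring receptors to the membrane, Rtp1 and Rtp2, had 0.0211 and 0.0347 RPKM in kidney and 0.0263 and 0.0189 in liver. Between tissues 11 were tested, with 5 higher in kidney, among them Stoml3 (1.62) and Cnga4 (1.70), and 2 lower. Of 9 regulators of receptor gene choice, 8 were found, of which 7 had more TS than NTS reads in kidney and 6 in liver. In kidney, the homeobox gene Emx2 was higher than in liver by 5.82 and Ebf1 by 3.01, while Lhx2 was lower by −1.28. None of these 8 had a called rhythm.

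The sparse NTS reads of the family moved with a property of the whole library. In kidney, the olfactory receptor NTS density followed the NTS share of reads in other genes, which ranged from 9.78% to 14.4% over libraries (Pearson r = 0.954, Spearman rho = 0.979, permutation p = 1e-05 each, the smallest 100000 permutations can give, adjusted p = 2e-05 for r over both tissues). Without the 2 libraries farthest from the median r was 0.896, and within replicate 1 and replicate 2 it was 0.898 and 0.976 (n = 6 each, exact permutation p = 0.00833 and 0.00278). In liver r was 0.476 and rho 0.580 (permutation p = 0.123 and 0.0511, adjusted p for r = 0.123), falling to 0.106 without the 2 farthest, and 0.383 and 0.797 within the replicates (n = 6 each, exact permutation p = 0.35 and 0.0667). Liver ZT0 replicate 1 stood apart: its NTS density was 0.0181 RPKM, the highest in liver, and its log2 ratio of 0.73 the lowest, while the NTS density of its other genes was 0.0809, against a liver mean of 0.0836. Without that library r was 0.822 (permutation p = 0.00217). Both axes come from the same libraries and share their depth, and what else moves with them was not tested.

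**Figure D5:**
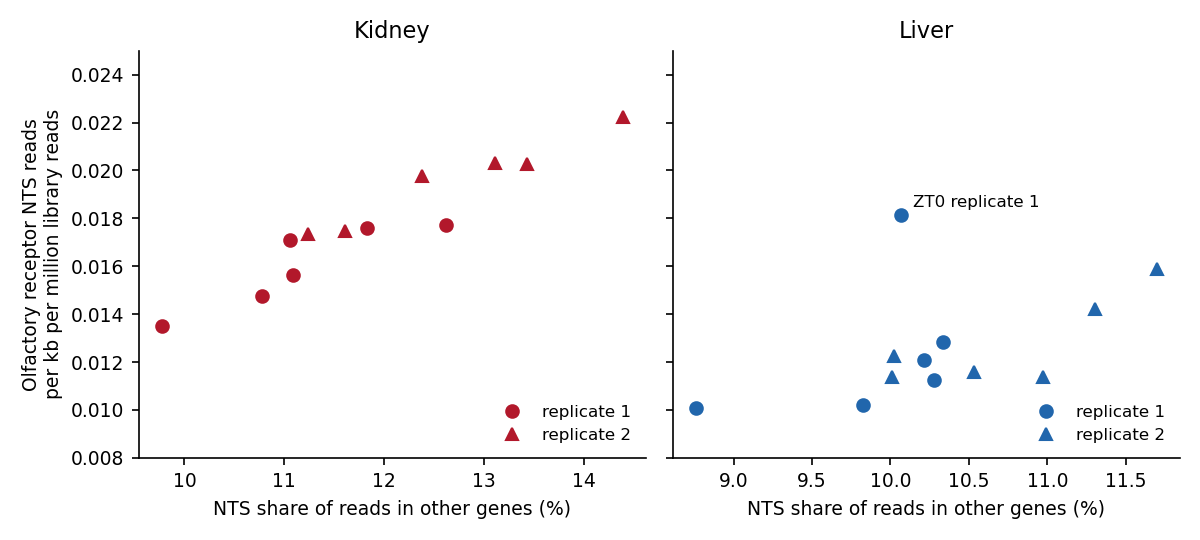
Pooled olfactory receptor NTS density (RPKM; the axis does not start at 0) against the share of reads in other genes that lie on the NTS, per library, for kidney (left) and liver (right). Circles are replicate 1 and triangles replicate 2; kidney points rise along a line, and liver ZT0 replicate 1 lies above the other liver points at 0.0181.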

How the data were processed

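Per the file headers, the authors deposited, read counts and RPKM values for each entry, strand and time. Per the submitters' processing notes the build is mm10. No aligner or read counter is named. RPKM, reads and length gave each library total. Per the labels' protocols, oligomers were captured with TFIIH antibodies and then lesion antibodies. That protocol names lesions other than cisplatin adducts, while the series design names cisplatin. Deposited starts count from 0 and were raised by 1. The 14 opposite-strand overlaps were left out, as were other genes overlapping an opposite-strand entry; other genes include entries with no symbol.

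Pooled values were tested with exact sign-flip tests over 12 libraries (4096 patterns) or 100000 permutations, and single entries and chromosome sums with edgeR 4.0.16 (limma 3.58.1, R 4.3.3), filterByExpr and, except between strands, TMM. Strand fits used the library as a block. Benjamini-Hochberg adjustment had a threshold of 0.05. Members and lists were chosen with earlier results of these data known. Named genes were those of the highest density (6 per tissue), the largest called strand ratios (6 up and 4 down with at least 50 reads), tissue differences and rhythms, and fixed lists. Tests were checked on simulated data, with changes planted only in well-covered entries and with no shift between replicates. That check does not reach thinly covered members. DESeq2 1.42.0 and other settings were alternatives. Replicate numbers were not taken to pair samples: between times, the correlations of the replicates' deviations from their group means ran from 0.07 to 0.31 in kidney and −0.11 to 0.15 in liver, so not all passed 0.1. The kidney median was 0.20, so a shared shift of a replicate number remains possible, and results with the replicate block are given below.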

Additional observations from a re-analysis of the deposited data

Results flagged for a closer look

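The following results differed between kidney and liver by a test of the difference itself (permutation test with 100000 resamples, 16 tests, Benjamini-Hochberg adjustment). The log2 strand ratio of the pooled olfactory receptor genes was 0.24 in kidney and 1.19 in liver, a difference of −0.95 (adjusted p = 2.67e-05), and of −0.41 without Olfr1033. Set against vomeronasal receptor genes, it was −0.45 in kidney and 0.44 in liver, a difference of −0.90 (adjusted p = 2.67e-05). Without Olfr1033 it was −0.51 in kidney and −0.15 in liver. Near minus far members, the ratio was −0.64 in kidney and −1.25 in liver, differing by 0.61 (adjusted p = 9.14e-05), and the NTS density 2.74 and 1.79, differing by 0.95 (adjusted p = 2.67e-05). Without Olfr1033 the ratio was −0.46 in kidney and 0.021 in liver, so the sign of the tissue difference turned.

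By chromosome, kidney minus liver, the ratio differed by −1.90 on chromosome 2, by −2.85 on chromosome 10 and by −1.41 on chromosome 19 (adjusted p = 2.67e-05 each). Chromosome 10 stood at −0.77 in kidney and 2.08 in liver. Few genes carried the differences on chromosomes 2 and 10. Without Olfr1029 to Olfr1036 the ratio of summed reads on chromosome 2 was 0.33 in kidney and 0.11 in liver. Without Olfr9, Olfr763 and Olfr1357 that on chromosome 10 was 0.28 and 0.15. On chromosome 19 the tissues stayed apart without Olfr1443, at −0.069 and 1.12, against 0.81 and 2.31 with all members (no test). The difference was −1.15 on chromosome 4 and −0.51 on chromosome 11 (adjusted p = 0.00048 each), and 0.38 on chromosome 7, with −0.12 in kidney and −0.50 in liver (adjusted p = 0.00117). Olfr267 held many of the chromosome 4 TS reads and few NTS reads, and that difference was not repeated without it. The other 6 chromosomes compared did not pass.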

How the results depend on the processing

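The pooled strand ratio and its difference from other genes kept direction and call under every alternative with a test. Over the far members without Olfr1029 to Olfr1036, chosen by their values and given with no test, the ratio was 0.47 in kidney and 0.18 in liver; against other genes the ratio was −2.42 and −2.94, TS density −6.15 and −6.53, and NTS density −3.73 and −3.59. Kidney minus liver it was 0.33 for TS density, 0.044 for NTS density and 0.29 for the ratio. Without Olfr1033, without members over 10 kb and by the median chromosome, the TS difference from vomeronasal genes was 0.15, 0.12 and −0.013 in kidney and 0.051, 0.088 and 0.069 in liver, the liver ratio difference −0.15, −0.11 and −0.13, and kidney minus liver TS density 0.14, 0.071 and −0.048. The first 2 settings gave 0.021 and −0.10 for the liver near minus far ratio. With overlapping entries kept, liver TS against bitter taste genes was −0.15, kidney minus liver NTS 0.082 (−0.075 over far members) and the liver TS time amplitude 0.15; scaled to NTS reads of other genes that amplitude was 0.16. The intergenic differences on TS and NTS were −1.18 and −1.41 against all regions, −0.47 and −0.70 against regions over 100 kb, −0.48 and −1.16 for far members and −0.47 and −1.15 between olfactory receptor genes.

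Of single members, a minimum of 10 reads gave 35 of 280 towards TS and 38 towards NTS in kidney (71.7% and 10.6% of entries). In liver it gave 33 and 28 of 194 (70.3% and 11.1%). With no filter, kidney had 43 and 31 of 1066 members, beside 16592 and 2424 of 24932 entries, and liver 29 and 30 of 1018, beside 16048 and 2501 of 24825. Kidney minus liver, 22 of 256 members were higher with the minimum and 21 of 1060 with no filter, beside 8923 of 23093 and 8819 of 24899 entries. TMM over strand columns, which centres the typical gene on equal strands, gave 3 of 11 members towards TS in kidney and 2 of 7 towards NTS in liver, beside 8969 of 18973 and 8248 of 18380 entries. By chromosome it gave 0 towards TS and 13 towards NTS in kidney, beside 8979 and 8774 of 18974 entries, and 1 and 10 in liver, beside 8978 and 8250 of 18384. It reversed Olfr18 (−0.068 in kidney, −1.09 in liver), Olfr1443 (−0.34) and Olfr1033 (−0.46) in kidney, kidney chromosomes 1 (−1.89), 2 (−1.58), 4 (−1.80), 9 (−1.84), 11 (−1.86), 14 (−2.16) and 19 (−1.63), and liver chromosomes 1 (−1.72), 4 (−0.73), 9 (−2.10), 10 (−0.49), 11 (−1.42), 14 (−2.52) and 19 (−0.28). Kidney rhythm calls were 0 by DESeq2, with a minimum of 10 reads, with no filter and without TMM (0, 5, 23 and 1 at an unadjusted p under 0.05), of 2, 116, 994 and 14 members tested. Beside these stood 4020 of 16408, 2730 of 22611, 2950 of 24698 and 3762 of 19876 entries. Liver calls were 1 of 2 members by DESeq2 and 1 of 892 with no filter, beside 4162 of 15879 and 2861 of 24507 entries. By chromosome, DESeq2 gave 3 higher in kidney on TS, beside 7291 of 20301 entries. Without TMM there was 1 kidney and 0 liver TS rhythm, beside 3763 of 19874 and 4013 of 19230 entries. On the NTS, 1 level was then lower in kidney, beside 4780 of 19705 entries.

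Without 1 library each, the kidney TS time amplitude was 0.13 to 0.25 (adjusted p = 0.0467 without kidney ZT0 replicate 2), liver single members towards NTS 0 to 1 (0 without liver ZT4 or ZT16 replicate 1, or ZT8, ZT12, ZT16 or ZT20 replicate 2), members higher in kidney 5 to 9 (5 without kidney ZT4 replicate 2), rhythm calls 0 to 1 in kidney (0 without either replicate of kidney ZT8, ZT12 or ZT16, or ZT4 or ZT20 replicate 2) and 1 to 4 in liver (1 without liver ZT4, ZT16 or ZT20 replicate 1, or ZT8 or ZT20 replicate 2), and by chromosome TS levels higher in kidney 5 to 9 (5 without kidney ZT0 or ZT4 replicate 2) and TS rhythms 0 to 1 in each tissue (1 in kidney without kidney ZT0 replicate 2, 0 in liver without either replicate of liver ZT8 or ZT20, ZT4 replicate 2, or ZT12 or ZT16 replicate 1). Shares of all entries are not given for the fits without 1 library. With the replicate block the time amplitudes were the same (kidney TS 0.19), with adjusted p of 0.0536 or 0.196 (permutation test), and the tissue differences kept their calls. Chromosomes with a TS level higher in kidney then numbered 9, beside 8716 of 20301 entries. Replicate 2 lay above replicate 1 at 6 of 6 times in TS density of the members in both tissues, in their kidney NTS density and in the NTS density of other genes in both tissues. Over all entries, single-entry kidney TS rhythm calls were 5040 with the block and 2960 without it. Depth limits single members, of which 90.4% in kidney and 93.0% in liver had at most 10 TS reads.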

Other observations

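Among clusters of at least 10 members, chr16:58760153-59345699 (25 members) had the lowest kidney density of TS plus NTS, at 0.00682 TS and 0.0109 NTS RPKM, and chr7:86268730-86695384 (15 members) the lowest liver density of TS plus NTS, at 0.00738 and 0.00448. The highest liver log2 ratio, 3.09, was that of chr2:85330967-90401674 (222 members, Olfr1033 included), and the lowest, −1.29, that of chr13:21072349-21703944 (12 members). The 22 pseudogenes had 282 TS and 542 NTS reads in kidney and 208 and 395 in liver, log2 ratios of −0.94 and −0.93, and without Olfr856-ps1 the ratios were −0.39 and −0.11. Members on the + strand had ratios of 0.59 in kidney and 2.02 in liver (0.47 and 1.06 without Olfr1029 to Olfr1036), and members on the − strand −0.09 and −0.17. The 848 members of at most 1 kb had 0.26 and 0.59, and the 247 longer ones 0.23 and 1.52 (0.11 and 0.62 without Olfr1033).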
